A study of Homo sapiens with 24 samples.

Results

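BRG1-only distal peaks within 50 kb are the 7265 sites, annotated as distal in the deposited list, at which a ChIP-seq peak of BRG1, an ATPase of the SWI/SNF chromatin remodelling complex, was called and no peak of BRM or SNF5 overlapped it. They were chosen from 51504 BRG1 peaks by 4 criteria. That annotation places them as distal and less than 50000 bp from the nearest transcription start site (TSS), they are under 3000 bp wide, and they share not even 1 bp with any of 22157 BRM or 6489 SNF5 peaks. They made up 14.1% of all BRG1 peaks (95% exact binomial interval 13.8 to 14.4), 64.5% of the 11263 distal BRG1 peaks, 75.3% of the 9644 distal BRG1 peaks within 50 kb and 22% of the 32949 BRG1 peaks that met neither other list. Type, distance, width and overlap chose these peaks, so values of these are given as a description.

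The question of the study was if SWI/SNF is still bound to chromatin in cells that make the long noncoding RNA SCHLAP1. The cells were RWPE1, a human line of benign prostate epithelium grown in serum-free keratinocyte medium. A lentivirus had given them SCHLAP1 or, as control, LACZ, with at least 1 week of selection in 2.5 ug/mL blasticidin. All samples were fixed in 0.3% formaldehyde for 30 min, with 125 mM glycine. BRG1, BRM and SNF5 were precipitated from MNase-cut chromatin of the SCHLAP1 cells, each in a group of 2 samples with its own antibody. Each subunit has 1 peak list, so no value below has a replicate spread and no difference was tested. Intervals are exact (Clopper-Pearson) at 95% confidence, cover counting error only and treat neighbouring peaks as independent, which they are not strictly. All 3 lists come from SCHLAP1 cells, and subunit peaks of LACZ cells were not analysed here, so an effect of SCHLAP1 cannot be read from them. No read counts stand beside the positions, which leaves the depth unknown, and a peak outside the BRM and SNF5 lists is a site without a call there, not a site shown to lack the protein.

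SWI/SNF uses ATP to slide or evict nucleosomes, and each complex carries either BRG1 (encoded by SMARCA4) or BRM (SMARCA2) as its motor. SNF5 (SMARCB1) is a core subunit of the canonical and polybromo forms of the complex and is absent from the non-canonical form. Away from promoters, SWI/SNF in epithelial cells is known mostly from enhancers, where factors such as AP-1 and TEAD recruit it or bind beside it.

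The letters of the distal sites themselves were not used here. The promoters of 4 genes near dense groups of these sites are shown. They include promoters met by all 3 lists, by BRG1 and BRM, and by BRG1 alone. The genes were chosen after their values were seen. Each line gives the 250 bases before the RefSeq start (GRCh38.p14, the assembly of hg38), 5′ to 3′ on the strand of the gene. Distances to a TSS given below are those of the deposited list, and its TSS is not always this RefSeq start. Capitals mark the motifs searched. The AP-1 motif was TGANTCA, searched on both strands. The TEAD motif was GGAATG, on both strands too. The GC box was GGGCGG, also on both strands. The TATA box was TATAAA, searched on the strand of the gene. TPM1, which encodes a tropomyosin of actin filaments (chr15:63048239-63048488, plus strand), was met by a peak of all 3 lists. EMP1, which encodes an epithelial membrane protein (chr12:13196476-13196725, plus strand), was met by BRG1 and BRM. PTGS2, the inducible cyclooxygenase (chr1:186680424-186680673, minus strand), was met by BRG1 and BRM too. TNFSF10, the death ligand TRAIL (chr3:172523431-172523680, minus strand), was met by BRG1 alone.
TPM1: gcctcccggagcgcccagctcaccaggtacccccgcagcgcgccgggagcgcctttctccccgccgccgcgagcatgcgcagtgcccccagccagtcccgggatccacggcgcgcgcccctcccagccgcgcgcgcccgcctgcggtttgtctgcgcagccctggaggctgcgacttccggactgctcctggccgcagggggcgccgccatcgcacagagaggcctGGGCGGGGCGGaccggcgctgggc
EMP1: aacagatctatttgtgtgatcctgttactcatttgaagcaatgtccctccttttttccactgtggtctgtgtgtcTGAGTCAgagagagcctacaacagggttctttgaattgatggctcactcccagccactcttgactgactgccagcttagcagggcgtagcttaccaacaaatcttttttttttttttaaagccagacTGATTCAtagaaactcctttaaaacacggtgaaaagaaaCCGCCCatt
PTGS2: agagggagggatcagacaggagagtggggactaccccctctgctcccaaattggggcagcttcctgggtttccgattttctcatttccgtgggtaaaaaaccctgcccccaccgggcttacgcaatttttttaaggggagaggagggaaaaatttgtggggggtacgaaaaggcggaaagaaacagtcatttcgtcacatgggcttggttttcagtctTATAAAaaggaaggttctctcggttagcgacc
TNFSF10: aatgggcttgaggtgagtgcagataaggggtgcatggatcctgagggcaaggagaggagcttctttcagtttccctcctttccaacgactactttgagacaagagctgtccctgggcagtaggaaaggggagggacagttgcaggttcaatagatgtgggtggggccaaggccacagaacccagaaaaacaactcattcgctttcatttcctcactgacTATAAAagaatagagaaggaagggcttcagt

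The TPM1 promoter had a GC content of 78.4% and 34 CpG dinucleotides, with 2 GC boxes that overlap by 1 base. The EMP1 promoter had a GC content of 42.4% and 3 CpG dinucleotides, with 2 AP-1 motifs and 1 GC box. The PTGS2 promoter had a GC content of 50.4% and the TNFSF10 promoter one of 49.6%, and each held 1 TATA box. A match is a description of letters and not a bound site. Among promoters of all genes that a BRG1-only distal peak gave as nearest (2484 promoters of 1765 genes in the RefSeq table), 53.1% held a GC box, 7.21% an AP-1 motif, 11.3% a TEAD motif and 7.09% a TATA box. Among all 35116 promoters in the table the shares were 42.6%, 6.57%, 11.9% and 6.80%. Those belong to 27305 genes, of which 15843 are protein-coding. The median GC content was 62.4% for the genes named by BRG1-only distal peaks and 58.0% for all promoters. BRG1 peaks met 58.1%, BRM peaks 45.1% and SNF5 peaks 11.7% of the promoters named by these sites, against 41.8%, 31.7% and 8.69% of all promoters. The named promoters that a BRG1 peak met (1442) had a median GC content of 66.4%, against 54.8% for the 1042 that none met, and GC boxes in 68.4% against 31.9%. The AP-1 motif stood in 6.52% of the promoters met and 8.16% of those not met. The named promoters that BRG1 met were thus richer in G and C. The parts of base composition and of the kind of gene in these shares were not tested.

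The sites were narrow. Their median width was 507 bp (quartiles 386 and 752 bp), from 331 bp, the narrowest width in the BRG1 list, to 2632 bp. Widths under 400 bp made up 28.8% and widths of 1000 bp or more 11.1%. Together they covered 4459 kb. For comparison, the median was 533 bp for the 1385 BRG1-only distal peaks beyond 50 kb, 516 bp for the 15907 BRG1-only intron peaks and 1023 bp for the 2291 distal BRG1 peaks within 50 kb that met BRM. The width limit left out 1 peak, named for the long noncoding RNA gene MIR31HG (3237 bp). The widest peak inside it was named for AC013270.1, with 2632 bp at 2016 bp from the TSS (chromosome 2, 96533009 to 96535640). It was followed by YBX1P6 with 2557 bp, RICTOR with 2526 bp, UBE2L5P with 2391 bp, LINC02225 with 2335 bp, RPL5P21 with 2309 bp, a further YBX1P6 peak with 2276 bp and LGALS3 with 2269 bp. RICTOR encodes a subunit of the kinase complex mTORC2 and LGALS3 encodes galectin 3. The YBX1P6 peak of 2557 bp ended 120 bp from a BRM peak, while the RPL5P21 peak had no BRM peak within 256102 bp.

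The distance to the nearest TSS had a median of 12136 bp (quartiles 5325 and 23447 bp). The closest sites were named for ARID3C at 999 bp, RNA5SP507 at 1000 bp and LEXM at 1001 bp. Just inside the limit lay sites of PAX8 (49988 bp), a paired-box transcription factor gene, LMTK2 (49948 bp) and AL357833.1 (49948 bp). Just outside it lay BRG1-only peaks of SDK1 (50028 bp), MTND4P17 (50100 bp) and SLC25A6P2 (50115 bp). The share of distal BRG1 peaks that were BRG1-only was 67.7% (64.2 to 71.1; 501 of 740 peaks) between 999 and 2000 bp from the TSS, 75.4% between 10000 and 20000 bp and 83.8% (80.5 to 86.7; 485 of 579) between 40000 and 50000 bp. By width it was 93.5% (92.4 to 94.5; 2094 of 2239) under 400 bp, 70.4% at 750 to 1000 bp and 21.0% (17.9 to 24.4; 131 of 624) at 1500 bp or more. Both measures are part of the rule, and the trends describe the peaks chosen.

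**Figure D1:**
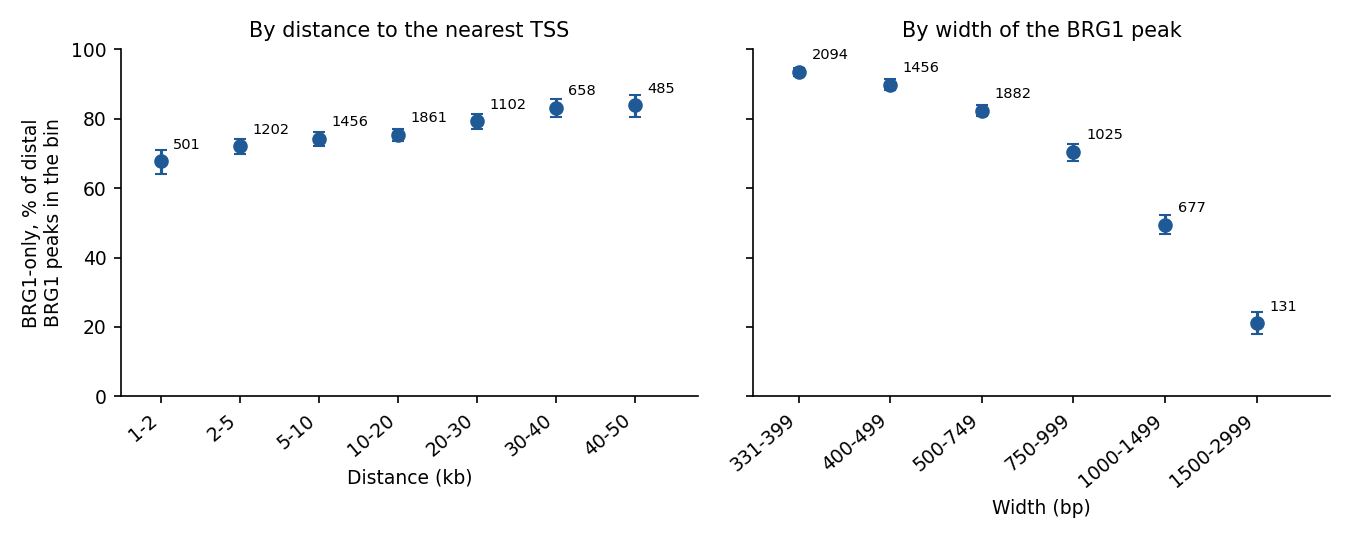
Share (%) of distal BRG1 peaks within 50 kb and under 3000 bp wide that met no BRM or SNF5 peak, by distance to the nearest TSS (left, kb) and by peak width (right, bp). Points are shares, bars are 95% exact binomial intervals, and the number at each point counts the BRG1-only peaks. The share is 67.7% in the nearest and 83.8% in the farthest distance bin, and 93.5% in the narrowest and 21.0% in the widest width bin.

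Near misses were few. A BRM peak lay within 1000 bp of 8.96% of the sites (8.31 to 9.64; 651 sites) and an SNF5 peak within 1000 bp of 1.10% (80 sites). The site named for IRX1P1 (chromosome 13, 24746988 to 24747332) directly abutted a BRM peak with a gap of 0 bp, and those of SNORD29 and AL606491.1 lay 2 and 4 bp from one. The site named for HMGB1P1 (chromosome 20, 57441523 to 57442348) abutted an SNF5 peak, and those of PCAT1 and FOXJ2 lay 124 and 127 bp from one. At the other end, the site of VCX2 on chromosome X was 4783887 bp from the nearest BRM peak and that of AL606763.1 on the same chromosome was 4273454 bp away. The RNU6-217P site on chromosome 3 was 3935253 bp from BRM and 3935475 bp from SNF5.

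By the median gap, other BRG1 peaks lay nearer to these sites than BRM or SNF5 peaks did. The median gap was 4163 bp to any other BRG1 peak, 11743 bp to another site of the same kind, 21246 bp to a BRM peak and 112832 bp to an SNF5 peak. Within 10 kb, 66.3% had another BRG1 peak (65.2 to 67.4), 47.9% another BRG1-only distal site (46.8 to 49.1), 35.2% a BRM peak (34.1 to 36.3) and 10.3% an SNF5 peak (9.59 to 11.0). The 3 lists differ in length, and the part of this in the shares was not tested. The gaps to other BRG1 peaks were often short, with 20.6% of the sites within 300 bp and 31.2% within 1000 bp of one, and whether such neighbours are parts of 1 broader signal was not tested. Joining sites up to 1000 bp apart left 6390 sites, of which 34.2% had another within 10 kb.

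The BRG1-only distal sites within 50 kb lay closer to the other subunits than those beyond 50 kb did. A BRM peak lay within 10 kb of 35.2% within 50 kb, against 11.8% beyond 50 kb (10.2 to 13.7), and an SNF5 peak within 10 kb of 10.3% against 0.505% (0.203 to 1.04; 7 of 1385 peaks). The limit on distance to a TSS also sets how near promoter peaks can be, and a BRG1 promoter peak lay within 10 kb of 20.9% of the sites within 50 kb and of 0 of the 1385 beyond. Set against BRG1-only intron peaks, the shares were nearer each other. A BRM peak lay within 10 kb of 35.2% of the distal sites and 38.5% of the intron peaks (37.8 to 39.3), and an SNF5 peak within 10 kb of 10.3% of the distal sites and 13.8% of the intron peaks (13.2 to 14.3).

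**Figure D2:**
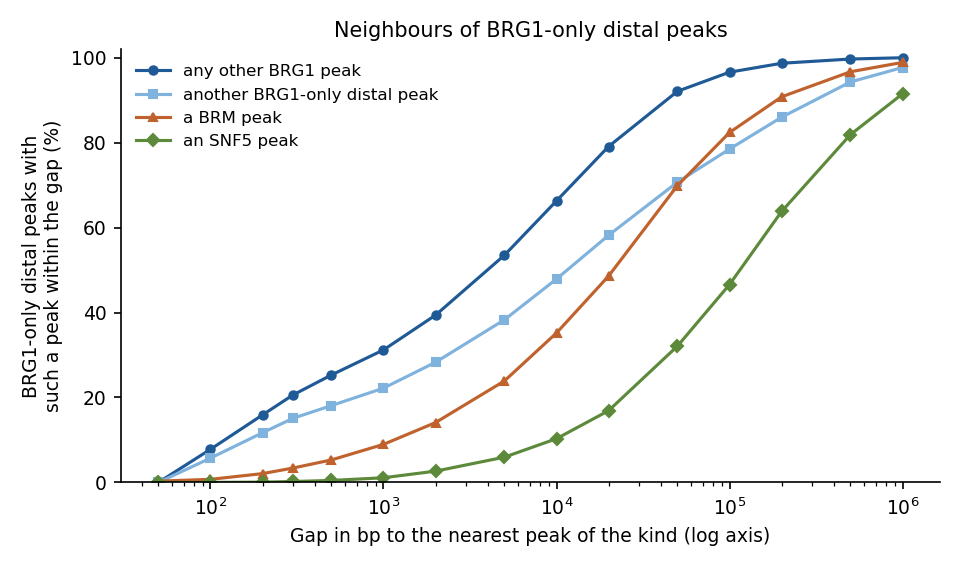
Cumulative share (%) of the 7265 BRG1-only distal sites that have a neighbouring peak within the gap on the x axis (bp, log axis), for any other BRG1 peak, another BRG1-only distal site, a BRM peak and an SNF5 peak. At 10000 bp the curves stand at 66.3%, 47.9%, 35.2% and 10.3%.

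Chained at gaps of at most 10000 bp, the sites formed 5146 groups. Of the sites, 52.1% stood alone, 885 groups were pairs, 413 held 3 or 4 sites, and 65 groups of 5 or more held 369 sites (5.08%). The longest group had 9 sites. The 50 kb window with most sites lay on chromosome 15 (55998198 to 56048197), with 10 sites of 331 to 1326 bp among 11 BRG1 peaks. Its remaining BRG1 peak met the only BRM peak of the window, and no SNF5 peak lay in it. The names there were CNOT6LP1, RN7SL568P and NEDD4, and the nearest coding genes were NEDD4, a ubiquitin ligase gene, 4585 bp to the left and RFX7, 39082 bp to the right. Another 3 windows held 9 sites each. That on chromosome 1 (16164284 to 16214283), around ARHGEF19, held 19 BRG1 and 10 BRM peaks. The one on chromosome 10 (114024999 to 114074998) surrounds ADRB1, the beta-1 adrenergic receptor gene, and held 12 BRG1 and 2 BRM peaks. On chromosome 20 (53752657 to 53802656) all 9 BRG1 peaks were BRG1-only distal sites, no BRM or SNF5 peak was called, and the nearest coding genes were ZNF217, 154954 bp to the left, and BCAS1, 140884 bp to the right.

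The sites were spread over 4540 gene names, of which 3024 (66.6%) were given by 1 site and 113 by 5 or more sites (643 sites). A site is named for the gene of its nearest TSS, which does not show that it acts on it. The name with most sites was AC006076.1, not matched to a RefSeq gene, with 10 sites of 331 to 1297 bp. They were among 17 BRG1 peaks of that name, and 2 BRM peaks also carried it. Of the sites, 9 were those of the chromosome 20 window just described. The last ran past the end of that window and lay 2490 bp from a BRM peak. ADRB1 had 9 sites, 6 on the left of its BRG1 promoter peak (1241 bp) and 3 on its right, from 10209 to 18816 bp from the TSS. Their widths were 478, 331, 351, 588, 471, 518, 394, 427 and 1311 bp, and a BRM peak of 350 bp was called at the promoter. The nearest BRM peak was 5867 to 17824 bp from these sites. AC098680.1 had 8 sites among 10 BRG1 peaks and RAD23B, a gene of nucleotide excision repair, 8 among 12.

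The order of these genes depends on how close neighbours are counted. With sites up to 1000 bp apart joined, AC006076.1 had 7 sites, AC098680.1, RAD23B, EMP1 and CYP24A1 had 6 each, ADRB1, TPM1 and TNFSF10 had 5 each, and LINC02535, FAT2 and ZFP36L2 had 4 each.

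LINC02535, a long noncoding RNA gene on chromosome 6, had 8 sites, and they were all of its BRG1 peaks. No BRM or SNF5 peak carried its name. Of the sites, 5 lay upstream of its TSS, 13299 to 16674 bp away, with widths of 497, 345, 494, 559 and 902 bp, and 3 lay downstream, 25748 to 44963 bp away. The nearest BRM peak was 42308 bp or more from each of them. The nearest coding gene to the right was NT5E, which encodes the ecto-nucleotidase CD73, 42769 bp away.

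TNFSF10 had 7 sites, all upstream, at 13448, 14009, 14989, 17972, 22872, 27076 and 34369 bp from its TSS and 432, 434, 476, 871, 1268, 1102 and 1093 bp wide. Its only other BRG1 peak was a promoter peak of 761 bp, and no BRM or SNF5 peak carried its name. The nearest BRM peak was 19294 to 39884 bp from the sites, and the nearest SNF5 peak at least 191915 bp. TNFSF10 falls outside the rule for named genes and was chosen after its values were seen, as were ZFP36L2, CYP24A1, ADGRF1, PTGS2, FAM131C, GSTA3 and BCAS1.

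TPM1 and EMP1 had sites near promoters where BRM peaks were also called. TPM1 had 8 sites, 1151 to 38626 bp from the TSS of the deposited list and 353 to 1007 bp wide. None of these distances fitted the RefSeq start whose promoter is printed above. Of the sites, 5 lay within 5000 bp of the deposited TSS, and the nearest was 471 bp from a BRM peak and 597 bp from an SNF5 peak. Its BRG1 promoter peaks reached 2760 bp, its BRM promoter peaks 1494 bp and its SNF5 promoter peaks 613 bp. EMP1 had 7 sites of 345 to 1580 bp. Of these, 5 were placed upstream at 8912 to 30929 bp, the nearest BRM peak being 1534 to 8694 bp away, and the other two lay 34312 and 42559 bp from the TSS with no BRM peak within 48862 bp.

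At FAT2, which encodes a large protocadherin of epithelial cells, the sites stood close to BRM peaks. Its 7 sites were 690, 544, 900, 1548, 397, 399 and 862 bp wide and lay 368 to 1644 bp from a BRM peak. The name FAT2 was given to 12 BRG1, 9 BRM and 3 SNF5 peaks. None of them was annotated as promoter, although a BRG1 peak of 3484 bp and a BRM peak of 1053 bp covered the RefSeq start, so a promoter call by name can miss a peak that lies there. ZFP36L2, an mRNA decay factor gene, and CYP24A1, the vitamin D hydroxylase gene, had 7 sites each. ADGRF1, an adhesion receptor gene, had 6 sites and no BRM peak by name.

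For 265 protein-coding names, BRG1-only distal sites were the only peaks of any list that carried the name. PTGS2 had most of these, 5 sites of 331 to 1034 bp at 12926 to 38696 bp from the TSS of the deposited list. FAM131C also had 5, while GSTA3, a glutathione transferase gene, and BCAS1 had 4. Here too the name can hide a peak. Of the 207 such genes with a start in the RefSeq promoter table, 23 had a BRG1 peak within 1000 bp of a start, 12 a BRM peak and 3 an SNF5 peak. PTGS2 was among them, with a BRG1 peak of 1482 bp and a BRM peak of 1006 bp over its RefSeq start.

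By name, 39.4% of the sites had a BRG1 promoter peak at their nearest gene (38.2 to 40.5; 2803 of 7122 sites), 31.2% a BRM promoter peak (30.1 to 32.3) and 12.2% an SNF5 promoter peak (11.5 to 13.0). None of the lists had a promoter peak at the nearest gene of 58.8% of the sites, all 3 lists had one for 11.0%, and BRG1 without BRM for 9.67%. Left out were 143 sites whose name stands for genes on several chromosomes. The share with a BRG1 promoter peak was 53% for sites 999 to 2000 bp from the TSS and 33.1% for those at 40000 to 50000 bp. It differed little by width, from 37.4% to 41.5% over the 6 width bins.

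With all names, the shares lay between those of other distal peaks. For distal BRG1 peaks that met BRM within 50 kb they were 47.0% for BRG1 (45.0 to 49.1), 39.4% for BRM (37.4 to 41.5) and 18.5% for SNF5 (16.9 to 20.1), and for BRG1-only distal peaks beyond 50 kb 27.5% (25.1 to 30.0), 21.2% and 6.82%. By chromosome, the BRG1 share of BRG1-only sites within 50 kb was lower than that of the sites that met BRM on 17 of 23 chromosomes and higher than that of the peaks beyond 50 kb on 19 of the 22 with a value. The sites that met BRM lay nearer the TSS, at a median of 9390 bp against 12136 bp. At 40000 to 50000 bp the BRG1 share was 33.1% for BRG1-only sites and 27.5% for those that met BRM. In each nearer distance bin it was lower for BRG1-only sites. The part of distance was not tested. For BRG1 promoter calls by name, the gaps to the sites that met BRM and to the peaks beyond 50 kb both moved with the kind of gene. The nearest TSS was that of a RefSeq protein-coding gene for 38.7% of the sites within 50 kb, 42.6% of the sites that met BRM and 26.4% of the peaks beyond 50 kb. With protein-coding names alone, the BRG1 share was 75.8% within 50 kb (74.2 to 77.4; 2130 of 2810), 75.5% where BRM was met (72.7 to 78.2) and 78.1% beyond 50 kb (73.5 to 82.2). The BRM share was 66.0% within 50 kb, 70.2% where BRM was met and 66.3% beyond 50 kb. The SNF5 share was 26.5% within 50 kb (24.9 to 28.2), 34.5% where BRM was met (31.5 to 37.5) and 22.2% beyond 50 kb (18.0 to 26.8). For BRG1-only intron peaks with protein-coding names, the BRG1 share was 86.2% (85.6 to 86.9) and the SNF5 share 32.9% (32.0 to 33.8). Over all 19974 protein-coding genes, 55.8% had a BRG1, 45.8% a BRM and 18.1% an SNF5 promoter peak by name. These last are shares of genes, whereas in the shares of sites a gene with several sites counts several times.

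**Figure D3:**
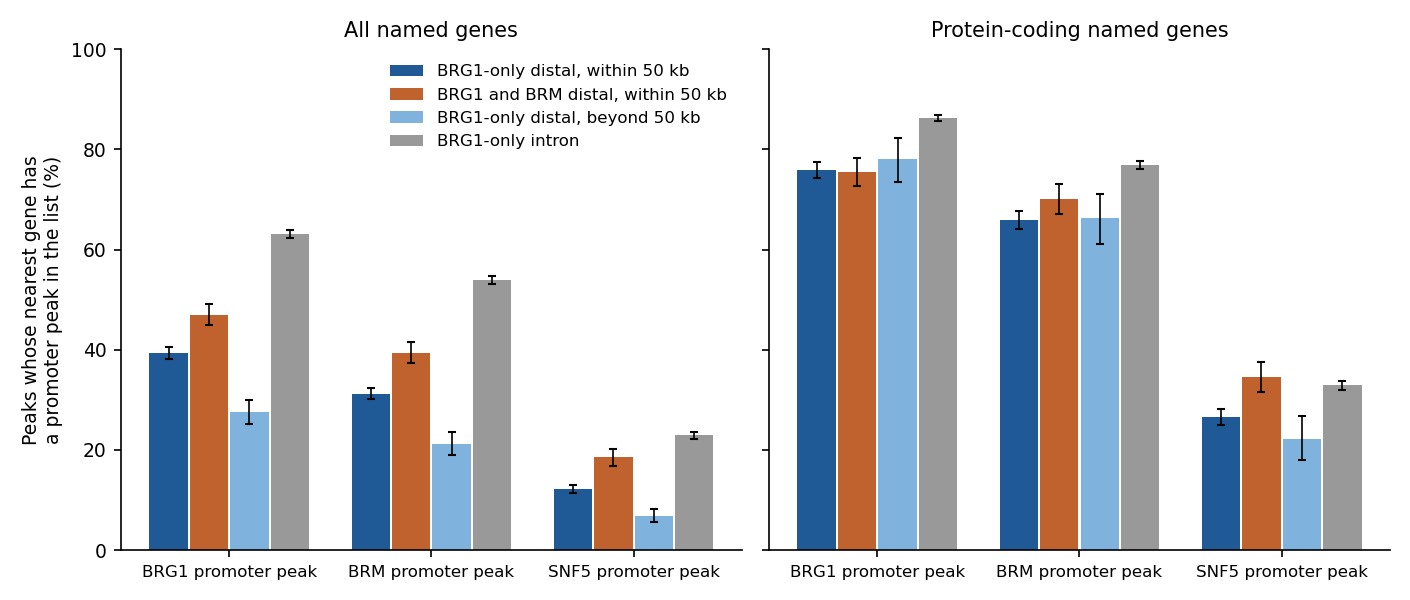
Share (%) of peaks whose nearest gene, by the deposited name, has a promoter peak in the BRG1, BRM or SNF5 list, for all names (left) and protein-coding names (right). Bars from left to right are BRG1-only distal sites within 50 kb, distal BRG1 peaks within 50 kb that met BRM, BRG1-only distal peaks beyond 50 kb and BRG1-only intron peaks, with 95% exact binomial intervals. For BRG1 the first bar is 39.4% with all names and 75.8% with protein-coding names.

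Names of protein-coding genes were the most frequent kind. Besides these 38.7% of the sites, 16.0% of the sites were named for pseudogenes, 8.73% for long noncoding RNA genes, 1.79% for microRNA genes, and 33.9% had a name without a RefSeq match. A RefSeq gene covered 21.2% of them (a long noncoding RNA gene 15.1%, a protein-coding gene 5.48%), although the deposited annotation places them as distal. The median gap to a RefSeq protein-coding gene was 19994 bp, and 73.0% had one within 50 kb. A side could be given to the 1418 sites (19.5%) whose distance fitted a RefSeq start to within 100 bp, and 82.9% of these lay upstream (80.8 to 84.8). The part that the deposited distal label, which sets peaks in introns and exons apart, plays in this share was not tested. The upstream share was 78.9% of 479 distal peaks that met BRM and 61.5% of 218 beyond 50 kb. Among BRG1-only intron peaks, which carry the other label, it was 24.9% of 2715 (23.3 to 26.6).

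Between chromosomes, these sites made up from 7.77% of BRG1 peaks on chromosome 16 (6.64 to 9.01) to 17.3% on chromosome 6 (16.0 to 18.7). Their share of distal BRG1 peaks within 50 kb ran from 62.9% on chromosome 17 to 93.3% on chromosome X (42 of 45 peaks). The SNF5 list has 0 peaks on chromosome X and 2 on chromosome 22, so the 42 and 37 sites there were chosen against BRM alone or nearly so. Without these chromosomes 7186 sites remained.

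Of 19974 protein-coding genes, 9.46% were named by at least 1 BRG1-only distal site, and this background stands beside the counts of 17 gene lists. Of the 363 entries in these lists, 77 were named. Any BRG1 peak named 24 of 26 basal epithelial and 15 of 21 luminal prostate genes, beside 63.7% of all protein-coding genes. The counts were 5 of 20 hepatocyte, 10 of 20 blood, 12 of 20 neuronal and 11 of 16 stromal and endothelial genes. Lists not tied to a cell type also stood high, with 20 of 20 p53 targets and 21 of 22 YAP/TEAD targets. A high share thus does not mark basal cells. The basal list had the highest share named by BRG1-only distal sites, 13 of 26 genes (50%; 29.9 to 70.1). Of its keratins, filament proteins of epithelial cells, KRT5, KRT14, KRT15 and KRT6A had sites of 467, 613, 439 and 651 bp as their widest, lying 2319, 2335, 2024 and 2109 bp from the TSS, and KRT17 was named by none of the sites. LAMB3, which encodes a laminin chain of the epithelial basement membrane, had 3 sites, the widest of 422 bp at 3319 bp from the TSS. CAV1, which encodes caveolin 1, had 3 sites, the widest of 1472 bp. TP63, the master regulator of basal identity, had 1 site of 461 bp at 42606 bp, 12 BRG1 peaks in all and no BRM or SNF5 peak by name. CAV2 and CDH3 were named by none of the sites.

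Of the luminal prostate genes, 5 of 21 (23.8%; 8.22 to 47.2) were named. KRT19, a keratin of simple epithelia, had 6 sites, the widest of 633 bp at 12765 bp, and these were all of its BRG1 peaks, while 3 BRM peaks carried its name. PMEPA1 had 3 sites among 19 BRG1 peaks, and NDRG1 had 1. ACP3 was named by none of the sites. Among the epithelial transcription factors, 7 of 20 genes (35.0%; 15.4 to 59.2) were named. EHF, an ETS factor, had 2 sites, the widest of 1268 bp and 38324 bp from BRM, and BARX2, a homeobox gene, had 2. CEBPB and ELF3 had none.

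Growth factor and signalling genes were named at shares from 13.3% to 35.0%. Of the EGF ligands and receptors 5 of 16 (31.2%; 11.0 to 58.7) were named. AREG and EREG, neighbouring ligand genes on chromosome 4, had 4 and 3 sites, the widest of AREG (773 bp) lying 34313 bp from BRM and that of EREG (712 bp) 1501 bp from it. EGFR had 2 sites among 31 BRG1 peaks, and EGF and EPGN had none. The YAP/TEAD targets counted 7 of 22 (31.8%; 13.9 to 54.9), with FJX1 (3 sites, the widest of 1742 bp), F3, the tissue factor gene (3 sites), and GADD45A (2 sites). The TGF-beta response list counted 7 of 20 (35.0%), with PMEPA1 at 3 sites and SMAD7 at 1 site that lay 131 bp from BRM. The NF-kB response list counted 5 of 20 (25%; 8.66 to 49.1), with NFKBIA, the inhibitor of NF-kB, at 2 sites and NFKB1 and NFKBIZ at 1 each. Of the AP-1 genes 2 of 15 (13.3%; 1.66 to 40.5) were named, FOSL1 by a site of 551 bp and JUN by one of 376 bp. A BRG1 peak of some kind was named for 13 of the 15. The intervals of the AP-1, NF-kB and p53 lists hold the background, as does that of the luminal list. Of the p53 targets 3 of 20 (15.0%; 3.21 to 37.9) were named, GADD45A and BBC3 by 2 sites each and DDB2 by 1.

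Of the laminins and integrins 4 of 18 (22.2%; 6.41 to 47.6) were named, ITGAV, an integrin alpha chain, by 3 sites. Mesenchymal genes counted 3 of 20 (15.0%; 3.21 to 37.9). TGFBI, a secreted matrix protein, had 5 sites with the widest of 1844 bp at 16831 bp, and MMP2 had 1 site with no BRM or SNF5 peak by name. The stromal and endothelial list, taken as a marker of other cells, counted 5 of 16 (31.2%; 11.0 to 58.7), among them COL6A3 with 3 sites and TIE1 and CNN1 with 1 each, so a high share was not confined to epithelial lists. The other lists of other tissues lay at 5.00% for hepatocyte genes (F2 alone), 10% for blood cells (CD79A and CD3E) and 5.00% for neuronal genes (MAP2 alone). Ribosomal protein genes were named at 5.00% (RPL8 and RPL3, 2 of 40 genes), and SWI/SNF subunit genes at 17.2% (5 of 29; 5.85 to 35.8). Of the lists in this paragraph, only the stromal and endothelial one had an interval above the background. With only sites at least as wide as the median site it counted 3 of 16, beside a background of 5.51%, and no interval was computed there. The lists were not matched on gene spacing, which sets how often a distal peak can carry a name, and its part in the shares was not tested.

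**Figure D4:**
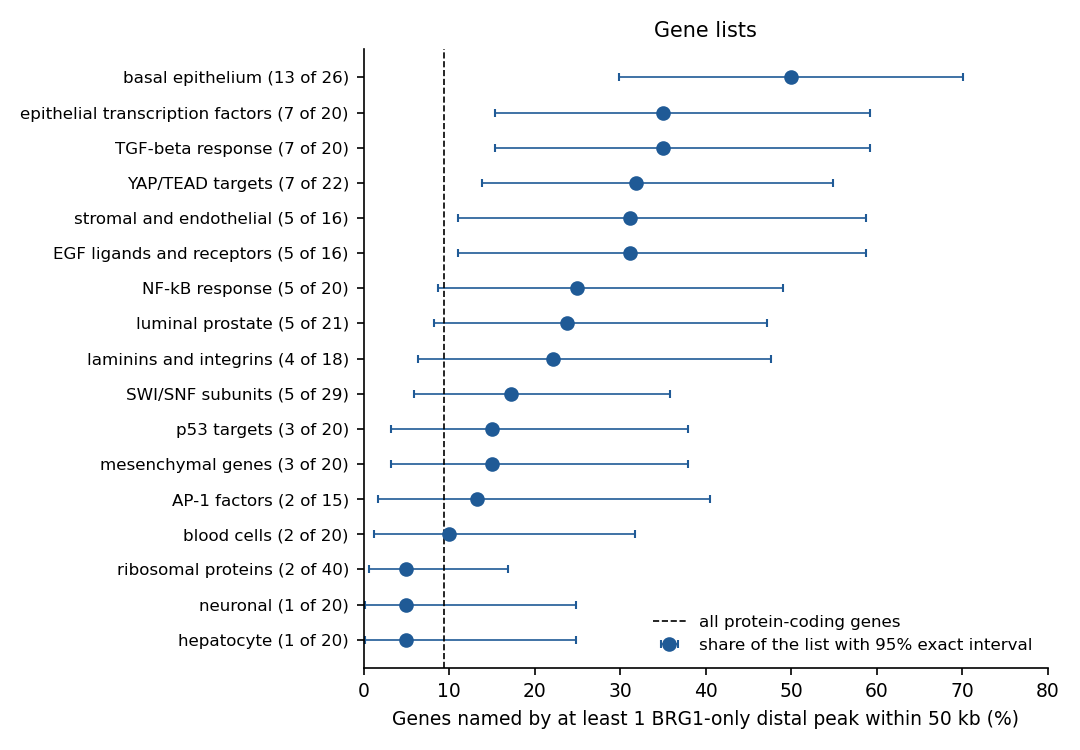
Share (%) of the genes in each of 17 lists that were named by at least 1 BRG1-only distal site within 50 kb, with 95% exact binomial intervals and, as the dashed line, the 9.46% of all protein-coding genes. Labels give the genes named of the genes listed. The basal list is highest at 50%, and the hepatocyte, neuronal and ribosomal lists are lowest at 5.00%.

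Among the genes of the profiled proteins, SMARCA4, which encodes BRG1, was named by 2 sites, the widest (419 bp) 108 bp from a BRM peak. SMARCA2 and SMARCB1 were named by none, the nearest site being 4487272 bp from SMARCA2 and 264812 bp from SMARCB1. ARID1B, a subunit of the canonical complex, was named by 2 sites and ACTB by 1. SCHLAP1 on chromosome 2 was named by none, and the nearest site, named for CWC22, lay 674710 bp away.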

How the data were processed

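Peak positions of BRG1, BRM and SNF5 in SCHLAP1-expressing RWPE1 cells were analysed. The authors deposited 1 list per subunit with, per the file headers, the start, end and width of each peak, its place, the name of the nearest TSS and how far off it lies, all other than the place and names in bp; no score, enrichment or count is held. Bowtie2, SAMtools, MACS2, deepTools 2.5.2 and the build hg38 appear in the submitters' processing notes. How peaks were called, thresholded and filtered, and if the 2 samples were pooled, is not given in the sources used here.

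Overlaps (at least 1 bp), gaps and groups were computed with Python 3.11.15, numpy 2.4.6, pandas 2.3.3 and scipy 1.17.1, tested on simulated data. Names were matched to RefSeq (GRCh38.p14) by chromosome and by symbol or unique synonym. The members and gene lists were chosen with earlier results of these data known. Named are the 8 genes with most sites, the 8 widest sites, the 4 densest windows, up to 3 genes with most sites and 2 with none per list, the sites next to each limit, those nearest to and farthest from BRM and SNF5, and the genes of the profiled proteins and SCHLAP1. A few genes chosen this way are not reported here. KRT5, KRT14, KRT15, KRT17, KRT6A and TP63 were named after their values were seen. No genome was used, so a planned motif search in the sites was not run. Alternatives were other overlap, distance, width, neighbour and promoter rules. Libraries of histone marks and input were not analysed here.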

Additional observations from a re-analysis of the deposited data

How the results depend on the processing

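Each alternative changed 1 choice, except where a second is named. The number of sites stayed within 1.5 times of 7265 under 7 alternatives (5652 to 8456) and was 2330 with BRG1 peaks at least as wide as the median BRG1 peak. The upstream share was 85.7% with a 25 kb limit and within its counting interval otherwise. Counting a gap of up to 1 kb as shared gave promoter shares of 37.3% (BRG1), 28.9% (BRM) and 11.0% (SNF5), and neighbours within 10 kb of 44.9% (another site), 28.8% (BRM) and 7.95% (SNF5). With a 25 kb limit the promoter shares were 41.3% (BRG1) and 32.5% (BRM), and the neighbour shares 46.1%, 39.4% (BRM) and 12.2% (SNF5). With any peak within 3 kb of the TSS the promoter shares were 53.8%, 35.0% and 13.3%, with protein-coding names 75.8%, 66.0% and 26.5%, and with protein-coding names and peaks by position at RefSeq starts, 2 choices together set after seeing the data, 79.2%, 69.3% and 26.6%. Another site lay within 5 kb of 38.3% and within 25 kb of 61.4%, BRM within 5 kb of 23.9% and 25 kb of 53.7%, and SNF5 within 5 kb of 5.95% and 25 kb of 20.2%. With 1 site per gene another site lay within 10 kb of 5.89% and BRM of 33.8%, and with the wider sites another site lay within 10 kb of 29.9%. Fewer sites leave fewer neighbours by construction. List entries named were 46 with the wider sites (background 5.51%) and 118 with the nearest RefSeq protein-coding gene (background 15.8%). Single lists moved too, and their intervals were computed for the main rule alone. The wider sites named 9 of 26 basal, 3 of 16 stromal and endothelial, 1 of 20 NF-kB and 1 of 29 SWI/SNF subunit genes. With a gap of up to 1 kb counted as shared, 4 of 20 TGF-beta genes were named, beside a background of 8.59%. With the nearest RefSeq protein-coding gene they were 11 of 20. The cause of the other differences was not tested. Merging sites within 1 kb and leaving out chromosomes 22 and X were also chosen after seeing the data. No paired analysis was possible because each subunit has 1 list without sample values, which also left no replicate to leave out. Without read counts, depth limits which BRM and SNF5 sites could be called, to an unknown extent.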
